A study of Mus musculus with 6 samples.

Results

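The contacts described here join chromatin near the centromeric end of a duplicated stretch of mouse chromosome 11 to chromatin near its telomeric end. They are all pairs of 10 kb bins with one bin in chr11:110770001-111170000 and the other in chr11:112120001-112520000 (mm9), which gives 40 bins on each side and 1600 pairs out of the 172578 pairs in the map. On the reference genome the bins of a pair lie 960 to 1740 kb apart, counted between bin starts. The pairs were chosen by the duplication ends, which were read from the contact counts of the same libraries, so their levels describe the libraries and are not a test.

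Contacts were measured by capture Hi-C: ends of DNA held near each other in the nucleus are ligated, the locus is pulled out with probes, and ligation products are counted between bins. The tissue was E12.5 limb bud, with 6 genotypes and 1 library per genotype. Dup-LdeltaBor combines the Dup-L duplication with loss of the domain boundary. Dup-C, Dup-L and Dup-S are duplications of different extent that keep the boundary, deltaBor lacks the boundary on a chromosome without duplication, and WT is the control.

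In the counts of each bin relative to WT, the gained segment was chr11:110960001-112520000 (1560 kb) in Dup-LdeltaBor, chr11:110770001-112520000 (1750 kb) in Dup-C, chr11:110960001-112520000 in Dup-L and chr11:111750001-112170000 in Dup-S. The bin chr11:111390001-111400000 held 1839 contacts in Dup-LdeltaBor, 25709 in Dup-C, 48983 in Dup-L, 21406 in Dup-S, 0 in deltaBor and 28639 in WT. It was the only bin covered in WT that was empty in deltaBor, and the bin before it is taken as the boundary. The labels used here do not state zygosity, strain or the number of pooled animals, so the number of copies per cell and the contacts made by each copy cannot be told apart.

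As background, the locus holds Sox9, which encodes a transcription factor needed for cartilage formation, and a pair of potassium channel genes, Kcnj2 and Kcnj16, in a neighbouring domain. Topological domains are stretches whose DNA meets itself more often than it meets DNA beyond a boundary. A tandem duplication in head-to-tail order joins the telomeric end of the first copy to the centromeric end of the next copy, so sequences that are distant on the reference become neighbours, and where the duplicated stretch spans a boundary an added domain, called a neo-TAD, can form around the junction. From the published work on these mice, the Dup-C segment takes in both potassium channel genes and the Dup-L segment stops short of Kcnj2. No gene was placed on mm9 here.

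The libraries held 4144258 (Dup-C) to 8965219 (Dup-LdeltaBor) contacts. They were scaled to WT on contacts that lie wholly to one side of the Dup-C segment. Folds carry exact 95% binomial (Clopper-Pearson) intervals that cover counting error only, and counts carry exact Poisson intervals; the labels do not say whether amplification duplicates were removed. No genotype had a replicate, so no p-value is given. As a yardstick, 3 squares of the same size and distances outside the Dup-C segment had folds over WT of 0.955 to 1.14 in all 5 mutants. These squares are themselves part of the scaling contacts, which draws their folds toward 1. They hold no duplicated bins and do not cross the boundary.

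Corner contacts were most frequent in the 3 genotypes whose duplication joins the telomeric end of the square to a bin of its centromeric side. The 1600 pairs held 148130 contacts in Dup-LdeltaBor, 73535 in Dup-C, 84653 in Dup-L, 14989 in Dup-S, 23920 in deltaBor and 21098 in WT. As a share of all contacts of the library this was 1.65% in Dup-LdeltaBor, 1.77% in Dup-C, 1.03% in Dup-L, 0.284% in Dup-S, 0.377% in deltaBor and 0.299% in WT. The 3 large duplications stand apart from the other libraries on either scale. A single pair held a median of 61 contacts in Dup-LdeltaBor (3 to 678), 40 in Dup-C (5 to 355), 35 in Dup-L (2 to 334), 9 in Dup-S (0 to 32), 14 in deltaBor (1 to 47) and 13 in WT (1 to 38). After scaling, corner contacts were 7.92 times those of WT in Dup-LdeltaBor (7.81 to 8.04), 8.68 times in Dup-C (8.55 to 8.81) and 4.28 times in Dup-L (4.21 to 4.34). The fold was 1.40 in deltaBor (1.38 to 1.43) and 1.07 in Dup-S (1.05 to 1.09). In the yardstick squares Dup-S itself had folds of 1.08 to 1.14. Scaling to all contacts of the map 2 or more bins apart lowered these folds, to 5.18 in Dup-LdeltaBor, and put Dup-S below 1 at 0.964.

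The centromeric end of the Dup-L segment splits the square. Its outer part, 19 bins at chr11:110770001-110960000 and 760 pairs, is duplicated in Dup-C but not in Dup-L. Its inner part, 21 bins at chr11:110960001-111170000 and 840 pairs, is duplicated in Dup-LdeltaBor, Dup-C and Dup-L. In Dup-LdeltaBor the outer part had 27.0 scaled contacts per pair and the inner part 175, folds over WT of 2.03 (1.98 to 2.08) and 13.3 (13.1 to 13.6). The order was turned round in Dup-C, with 155 in the outer part and 78.1 in the inner part, folds of 11.6 (11.4 to 11.9) and 5.96 (5.83 to 6.10). In Dup-L the outer part had 18.6 and the inner part 90.6, folds of 1.40 (1.36 to 1.44) and 6.91 (6.78 to 7.06). WT had nearly the same level in both, at 13.3 contacts per pair in the outer part and 13.1 in the inner part. The high part was in each case the part that adjoins the centromeric end of the duplication carried. Neither Dup-S, at 14.4 and 13.9, nor deltaBor, at 18.2 and 18.8, showed a split of this size.

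**Figure D1:**
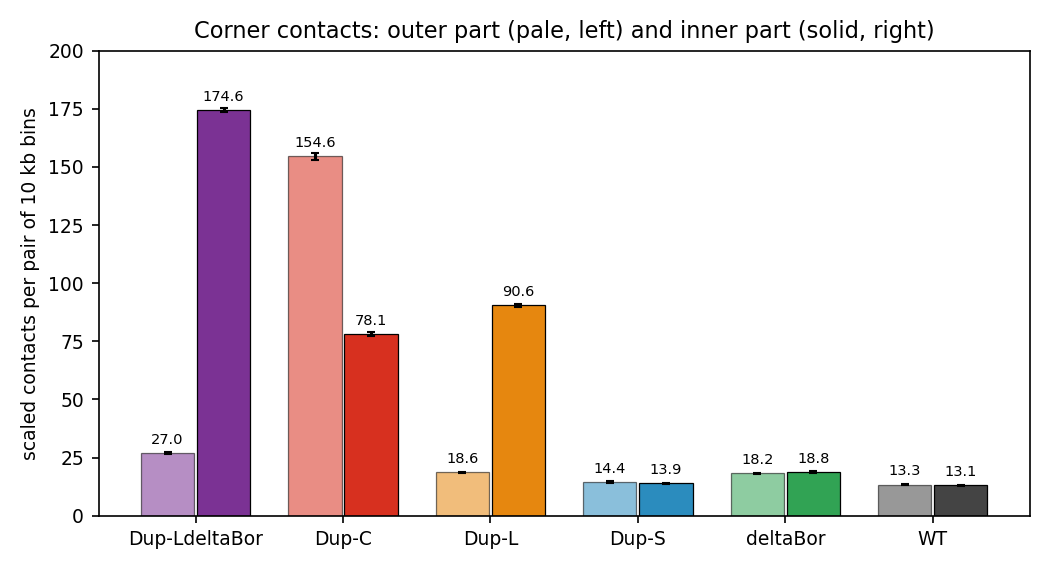
Scaled contacts per pair of 10 kb bins in each of the 6 libraries, for the outer part (pale bars, left, 760 pairs) and the inner part (solid bars, right, 840 pairs); error bars are exact 95% Poisson intervals of the counts. The inner part stands highest in Dup-LdeltaBor (175) and is above the outer part in Dup-L (90.6 and 18.6), whereas in Dup-C the outer part is the higher (155 and 78.1).

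The change at the ends was abrupt, within a single bin. The last bin outside the Dup-L segment, chr11:110950001-110960000, held 879 contacts with the 40 telomeric-side bins in Dup-LdeltaBor and 567 in Dup-L, against 435 in WT. The next bin, chr11:110960001-110970000, held 7058 in Dup-LdeltaBor and 3784 in Dup-L, against 418 in WT. The folds over WT of these neighbours were 2.28 and 19.1 in Dup-LdeltaBor, and 1.39 and 9.65 in Dup-L. Over 5 bins on either side, the fold inside was 7.49 times the fold outside in Dup-LdeltaBor (7.06 to 7.95) and 6.25 times in Dup-L (5.87 to 6.66). At the same place the ratio was 1.03 in Dup-S (0.954 to 1.12) and 0.948 in deltaBor (0.883 to 1.02), whose intervals include 1, and 0.683 in Dup-C (0.643 to 0.725). In Dup-C the corresponding step lay at its own end, between chr11:110760001-110770000 (204 contacts in Dup-C, 407 in WT) and chr11:110770001-110780000 (2766 in Dup-C, 516 in WT). After scaling, the folds over WT of these neighbours were 1.25 (1.05 to 1.48) and 13.3 (12.1 to 14.7). The ratio over 5 bins was 11.3 (10.4 to 12.3). Copy number changes at the same bins, and its part in the steps cannot be told apart.

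**Figure D2:**
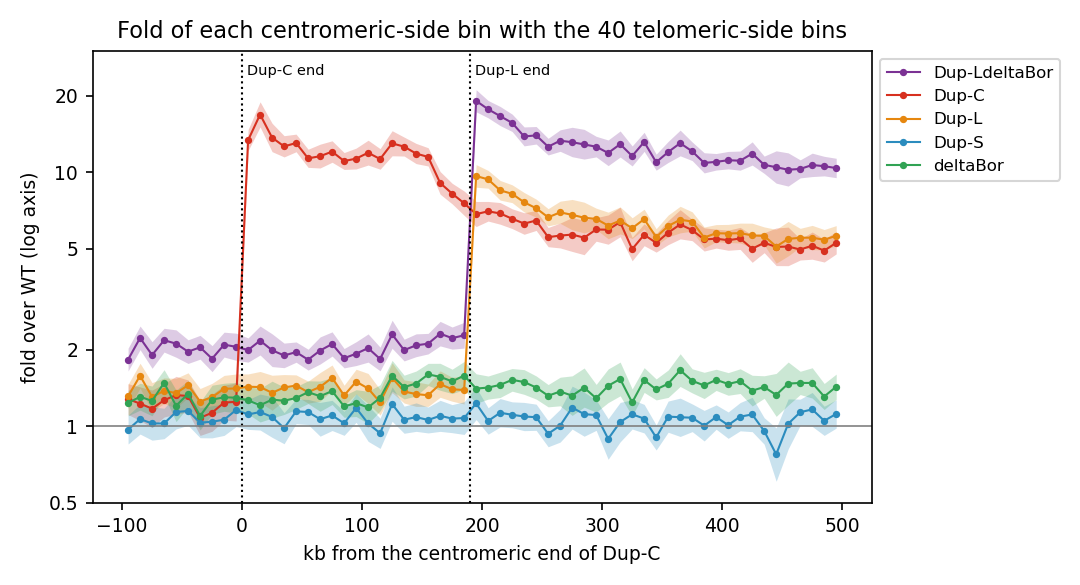
Fold over WT (log axis) of each centromeric-side bin with the 40 telomeric-side bins, against distance in kb from the centromeric end of Dup-C, for the 5 mutants; bands are 95% binomial intervals and dotted lines mark the ends of Dup-C and Dup-L. Bins left of 0 kb and beyond 400 kb lie outside the square. Dup-C steps up at its own end and Dup-LdeltaBor and Dup-L at theirs, where neighbouring bins have folds of 2.28 and 19.1 in Dup-LdeltaBor.

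All 3 large duplications share the telomeric end at 112520000, and there the profile dropped in all of them. The bin at chr11:112500001-112510000 had folds of 12.1 in Dup-LdeltaBor, 14.2 in Dup-C and 6.32 in Dup-L. The last bin of the square, chr11:112510001-112520000, had 7.72 in Dup-LdeltaBor, 10.1 in Dup-C and 4.28 in Dup-L. The next bin outside, chr11:112520001-112530000, had 1.11 in Dup-LdeltaBor (0.941 to 1.30), 0.800 in Dup-C (0.632 to 1.01) and 0.889 in Dup-L (0.750 to 1.05). The lower value of the last bin than of its neighbour inside was seen in these 3 libraries. In Dup-S that bin had a fold of 1.18, with 1.05 in its neighbour, and in deltaBor 1.58, with 1.51 in its neighbour. Over 5 bins on either side, the fold inside was 7.44 times that outside in Dup-LdeltaBor (6.94 to 7.98), 10.4 times in Dup-C (9.57 to 11.3) and 5.34 times in Dup-L (4.96 to 5.75).

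**Figure D3:**
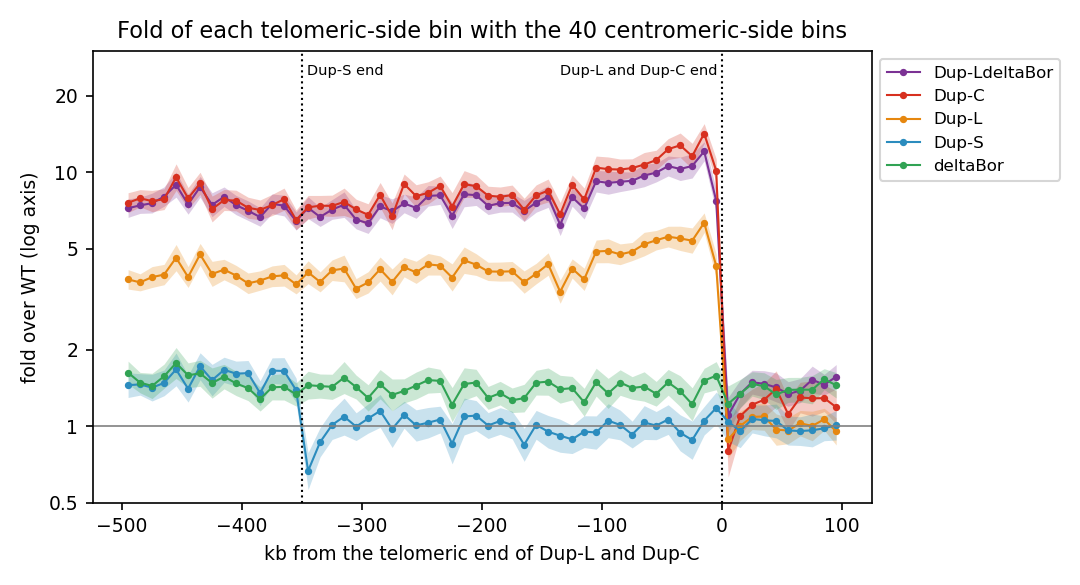
Fold over WT (log axis) of each telomeric-side bin with the 40 centromeric-side bins, against distance in kb from the shared telomeric end of Dup-L and Dup-C, for the 5 mutants; bands are 95% binomial intervals. The folds of Dup-LdeltaBor, Dup-C and Dup-L are highest close to the end and drop beyond it, to 1.42 in Dup-LdeltaBor, 1.21 in Dup-C and 1.01 in Dup-L over 100 kb, and those of Dup-S drop at the end of its own segment.

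Contacts were next related to the distance through a head-to-tail junction, the length of the duplicated segment less the distance on the reference. This distance is 10 to 600 kb for the 840 pairs of the inner part in Dup-LdeltaBor and Dup-L, and 10 to 790 kb for all 1600 pairs in Dup-C. The corner gain is the scaled mutant count less the WT count of the same pairs. In Dup-C it was 383 contacts per pair at 10 to 50 kb through the junction, 186 at 110 to 150 kb, 86 at 360 to 400 kb and 57.7 at 660 to 700 kb. In Dup-L it was 180 at 10 to 50 kb, 90.5 at 110 to 150 kb, 71.1 at 360 to 400 kb and 74.7 at 560 to 600 kb. In Dup-LdeltaBor the 4 values at the same distances as in Dup-L were 364, 188, 146 and 145. The WT counts of the same pairs lay between 9.60 and 17.4 contacts per pair over all classes. The gain was highest nearest the junction in all 3 genotypes, where pairs are the farthest apart on the reference. It did not go down in every step: its lowest values were 124.8 in Dup-LdeltaBor and 56.6 in Dup-L, both at 460 to 500 kb, and 57.7 in Dup-C at 660 to 700 kb, and the classes beyond these were higher. WT counts of the same pairs rose there too, from 12.8 to 16.3 per pair at 560 to 600 kb for Dup-LdeltaBor and Dup-L. For Dup-C they rose from 12.8 to 17.4 at 760 to 790 kb. These last classes hold 15 and 10 pairs, and the part of bin coverage in the rise was not tested.

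Set against reference distance, pair counts of the whole square had a Spearman correlation of 0.449 in Dup-C and -0.0547 in WT (1600 pairs). It was -0.492 in Dup-LdeltaBor and -0.481 in Dup-L, where the outer part has no path through the junction. In the inner part (840 pairs) it was 0.264 in Dup-LdeltaBor and 0.240 in Dup-L, against -0.0864 in WT. In Dup-C, where these 840 pairs also have a path through the junction, it was 0.00303, and in its outer part (760 pairs) 0.347. These are descriptions without a test, since pairs of a library share bins and depth.

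The gain can be read against the WT level of pairs at the same linear distance that lie on one side of the boundary inside the Dup-C segment. The centromeric side of the boundary is the shorter, so beyond 600 kb this level comes from the telomeric side only. The mix of the sides thus changes with distance, and its part in the ratios and slopes was not tested. Summed over all pairs with a path through the junction, the gain was 1.48 times that level in Dup-LdeltaBor (1.47 to 1.49), 1.08 times in Dup-C (1.07 to 1.09) and 0.708 times in Dup-L (0.702 to 0.715). WT pairs that cross the boundary are much rarer at these distances. With scaling outside the Dup-C segment, the gain exceeded their level in every class. It stood at 2.42 to 7.55 times the cross-boundary level in Dup-LdeltaBor, 2.55 to 5.26 times in Dup-C and 1.19 to 3.85 times in Dup-L. The lowest of these, 1.19 in Dup-L, was at 10 to 50 kb. The comparison with cross-boundary pairs was not repeated with other scalings or KR values, so whether every class stays above them there is not known. The class nearest the junction, 10 to 50 kb with 15 pairs, had the lowest ratio to the same-side level in all 3 genotypes, at 0.759 in Dup-LdeltaBor, 0.799 in Dup-C and 0.375 in Dup-L. From 60 to 600 kb, the log-log slope of the gain over 11 distance classes was -0.290 in Dup-LdeltaBor, -0.619 in Dup-C and -0.296 in Dup-L, against -0.507 for the WT same-side level. With KR values brought to equal bin sums, the ratios of gain to same-side level were 0.446 in Dup-LdeltaBor, 0.377 in Dup-C and 0.310 in Dup-L.

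**Figure D4:**
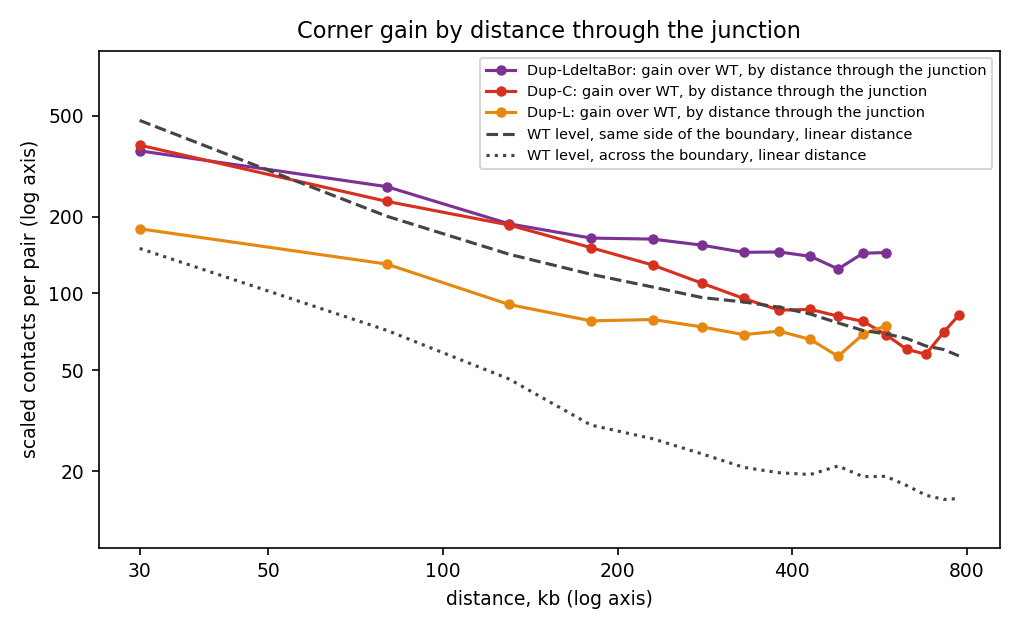
Corner gain over WT in scaled contacts per pair, in classes of 50 kb of distance through the junction, for Dup-LdeltaBor, Dup-C and Dup-L, with the WT level of pairs at the same linear distance on one side of the boundary (dashed) and across it (dotted); both axes are logarithmic. With scaling outside the Dup-C segment, every gain lies above the cross-boundary WT level. The gains of Dup-LdeltaBor run parallel to those of Dup-L at 1.94 to 2.2 times their value.

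Dup-LdeltaBor and Dup-L share a segment and differ by the boundary, and the corner gain had the same shape and a larger size in Dup-LdeltaBor. In the inner part Dup-LdeltaBor had 175 scaled contacts per pair, against 90.6 in Dup-L, a fold of 1.93 (1.91 to 1.95). The gain over WT was 161 per pair in Dup-LdeltaBor and 77.5 in Dup-L, a ratio of 2.08 (2.06 to 2.11), and across the 12 classes of junction distance this ratio stayed between 1.94 and 2.2. With deltaBor in place of WT as the baseline of Dup-LdeltaBor, the ratio was 2.01 (1.99 to 2.03). Contacts that do not leave the duplicated flanks were also higher. Their gain over WT was 1.82 times as large in Dup-LdeltaBor as in Dup-L within the 21 inner centromeric-side bins (1.78 to 1.86) and 1.92 times within the 40 telomeric-side bins (1.90 to 1.94). With KR values at equal bin sums the inner part was closer in the libraries, at 52.2 per pair in Dup-LdeltaBor and 39.9 in Dup-L. The part of copy number in these differences was not tested. In the outer part, where Dup-L and Dup-LdeltaBor have no path through the junction, the fold of Dup-LdeltaBor over Dup-L was 1.45 (1.42 to 1.48).

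Contacts within the flanks also differed among the duplications, and a ratio of the junction gain to them was formed after these values had been seen. Within the 40 telomeric-side bins, contacts were 2.40 times those of WT in Dup-LdeltaBor (2.39 to 2.42), 1.96 times in Dup-C (1.95 to 1.98) and 1.73 times in Dup-L (1.72 to 1.74). The ratio of the junction gain to the same-side level, divided by this fold less 1, was 1.05 in Dup-LdeltaBor, 1.12 in Dup-C and 0.969 in Dup-L. Divided by the fold less 1 of the inner centromeric-side bins, it was 0.892 in Dup-LdeltaBor, 0.821 in Dup-C and 0.778 in Dup-L. On the scale of the flanks the 3 genotypes lay closer together than before this division.

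Dup-C extends the duplication by 190 kb past the end of Dup-L, which lengthens the path through the junction for each pair of the inner part by that much. In the inner part Dup-C had 78.1 scaled contacts per pair, against 90.6 in Dup-L, a fold of 0.862 (0.850 to 0.874), although contacts within the inner centromeric-side bins were 1.21 times those of Dup-L (1.20 to 1.23). In the outer part Dup-C had 155 contacts per pair, against 18.6 in Dup-L, a fold of 8.31 (8.15 to 8.47). The block with the lowest fold of Dup-C over Dup-L, 0.533 (0.495 to 0.572), joined chr11:110970001-111020000 to chr11:112470001-112520000, and is the block of highest fold over WT in Dup-L. At equal distance through the junction the gain of Dup-C was 2.13 times that of Dup-L at 10 to 50 kb and 0.924 times at 560 to 600 kb. It did not fall in every step: it was 1.76 at 60 to 100 kb, 2.05 at 110 to 150 kb, 1.21 at 360 to 400 kb and 1.44 at 460 to 500 kb. Pairs at equal junction distance hold different centromeric-side bins in Dup-C and Dup-L, and the part of bin coverage in these ratios was not tested.

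The profile of Dup-C was not smooth inside the outer part. Its fold over WT was 11.5 at chr11:110920001-110930000 and 9.06 in the next bin, where Dup-C held 3220 and 1736 contacts. Over 5 bins on either side of 110930001, a position chosen after the values had been seen, the fold was 11.9 on the centromeric side and 7.72 on the telomeric side, a ratio of 0.647 (0.609 to 0.687). The ratio was 0.649 with KR values, 1.03 in Dup-S (0.951 to 1.12) and 1.01 in deltaBor (0.942 to 1.09). Dup-S and deltaBor have no path through a junction for these pairs. At 110960001 the ratio in Dup-C was 0.683, so the fall is not limited to 110930001. In WT, the mean number of contacts crossing a bin within 200 kb was lowest, among the centromeric-side bins of the square, at 110930001. It was 97.0 there, or -0.27 on the log2 scale relative to the mean of the map. The next bin, 110940001, was nearly the same at 97.1, and 111210001, outside the square, was lower at 94.6. Any link between these WT values and the fall in Dup-C was not tested.

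In deltaBor, without a duplication, contacts were higher than in WT over the whole square, by a factor that varied along the centromeric side. Over the outermost 100 kb of that side the fold was 1.28 (1.23 to 1.33), and over the 100 kb nearest the boundary 1.46 (1.41 to 1.52). The folds of deltaBor over WT were 1.37 (1.33 to 1.41) in the outer part and 1.44 (1.40 to 1.47) in the inner part. Single bins ranged from 1.19 to 1.60 in the outer part, from 1.24 to 1.66 in the inner part and from 1.22 to 1.58 on the telomeric side. All of these folds lay above those of the 3 yardstick squares in deltaBor, 0.956 to 1.00. The squares are part of the scaling contacts and do not cross the boundary, so they give no baseline for pairs that do. Contacts within the inner centromeric-side bins and within the telomeric-side bins were 1.10 (1.09 to 1.12) and 1.06 (1.06 to 1.07) times those of WT.

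In Dup-S the only part of the square that is duplicated is 5 telomeric-side bins, chr11:112120001-112170000. Their 200 pairs had 22.9 scaled contacts per pair in Dup-S and 15.1 in WT, a fold of 1.52 (1.44 to 1.60). The other 1400 pairs had 12.9 in Dup-S and 12.9 in WT, a fold of 0.996 (0.973 to 1.02). The bin just beyond the end, chr11:112170001-112180000, held 206 contacts in Dup-S and 465 in WT, a fold of 0.668 (0.564 to 0.789), the lowest of the 40 telomeric-side bins in that library.

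The pairs that join the very ends of a segment stood out in the libraries that carry that segment. The first and last bins of the Dup-C segment are 1740 kb apart on the reference and 10 kb apart through the junction of Dup-C. Their count was 17 in Dup-LdeltaBor, 327 in Dup-C (293 to 364), 11 in Dup-L, 13 in Dup-S, 7 in deltaBor and 11 in WT (5.49 to 19.7). The first and last bins of the Dup-L segment, 1550 kb apart, had a count of 329 in Dup-LdeltaBor (294 to 367), 24 in Dup-C, 192 in Dup-L (166 to 221), 10 in Dup-S, 9 in deltaBor and 7 in WT (2.81 to 14.4). The pair with the most contacts in the square was the same in Dup-LdeltaBor (678) and Dup-L (334), chr11:110970001-110980000 with chr11:112500001-112510000. In Dup-C it was chr11:110770001-110780000 with chr11:112500001-112510000 (355). Counts in this paragraph are not scaled for depth. After scaling, the highest pairs stood at 765 in Dup-LdeltaBor, 884 in Dup-C and 356 in Dup-L, and the Dup-C count of 24 at 59.8.

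The square was also divided into 64 blocks of 50 kb by 50 kb. At least 2-fold over WT were 48 of 64 blocks in Dup-LdeltaBor, where 14.2% of the 6780 blocks of the map passed this fold, 64 of 64 in Dup-C, against 8.47% of the map, and 40 of 64 in Dup-L, against 5.47%. None of the 64 passed in Dup-S, against 0.516% of the map, or in deltaBor, against 0.87%. Dup-LdeltaBor was at least 2-fold over Dup-L in 5 of 64 blocks, against 1.58% of the 6763 blocks tested, and over deltaBor in 40 of 64, against 9.77% of 6755. Dup-C was at least 2-fold over Dup-L in 32 of 64, against 2.17% of 6763. At 1.5-fold, 4 of 64 blocks passed in Dup-S, against 8.17% of the map, and 19 in deltaBor, against 6.8%. For Dup-LdeltaBor over Dup-L 45 passed 1.5-fold, against 8.65%, and of 16 blocks of 100 kb none passed 2-fold, against 1.38% of 1596. Since the square was placed on the duplication ends, these shares only describe it. The highest folds over WT were in blocks near the junction. They joined chr11:110770001-110820000 to chr11:112470001-112520000 in Dup-C, at 34.1 (30.1 to 38.9), and chr11:110970001-111020000 to the same telomeric-side block in Dup-LdeltaBor, at 22.9 (20.6 to 25.5), and in Dup-L, at 11.8 (10.6 to 13.2). The next in each of these libraries were neighbours of the highest block, at 17.8 and 18.5 in Dup-C, 17 and 20.3 in Dup-LdeltaBor, and 8.82 and 10.5 in Dup-L. The lowest folds over WT were 4.94 to 5.13 in Dup-C, all with centromeric-side bins from 111020001 on, and 1.85 to 1.88 in Dup-LdeltaBor and 1.24 to 1.28 in Dup-L, all in the outer part. In Dup-S the 3 highest blocks, 1.63 to 1.71, all held chr11:112120001-112170000, and the 3 lowest had folds of 0.839 to 0.866. In deltaBor the 64 blocks had folds of 1.14 to 1.71. Among 476 blocks outside the Dup-C segment at the same distances, folds over WT spanned 0.385 to 1.56 in Dup-C, 0.582 to 1.60 in Dup-LdeltaBor and 0.653 to 1.56 in Dup-L, and none reached 2-fold. Like the yardstick squares, these blocks are part of the scaling contacts.

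**Figure D5:**
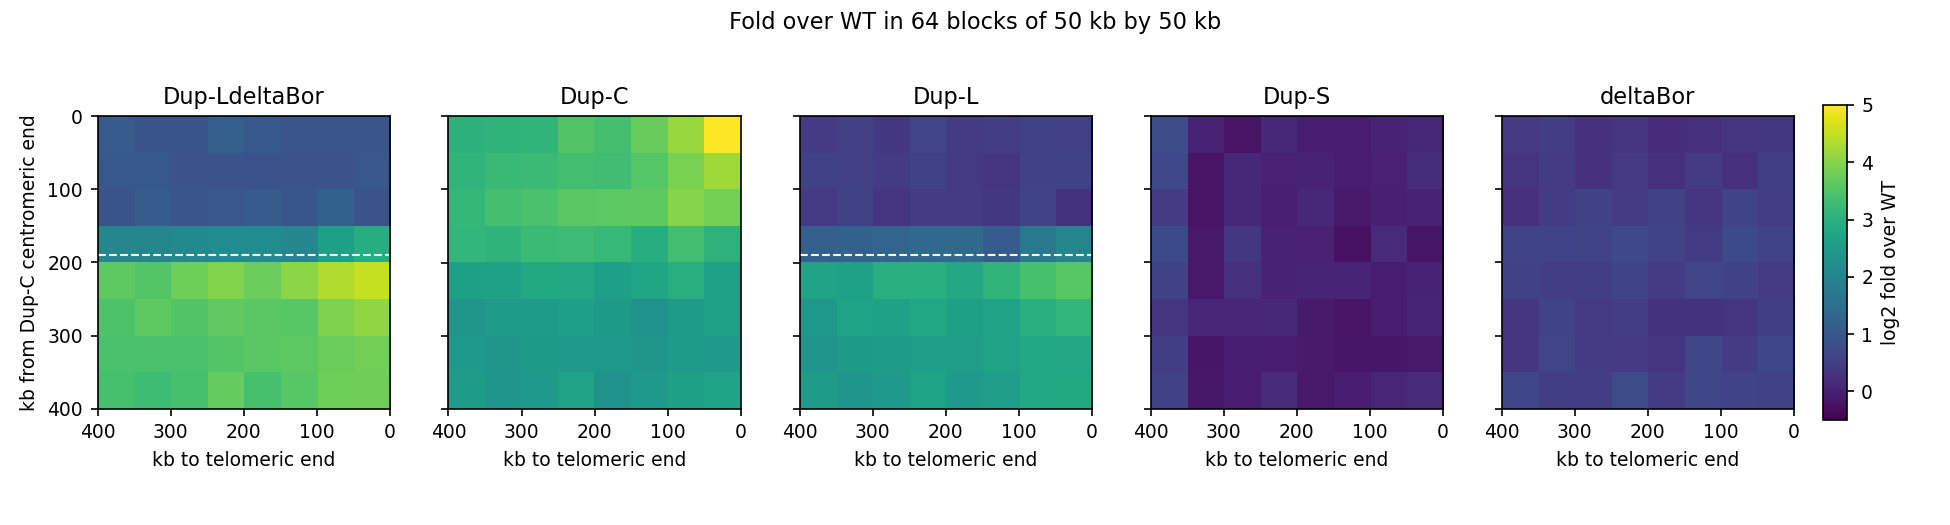
Fold over WT, on a log2 colour scale, of the 64 blocks of 50 kb by 50 kb in each mutant; rows give kb from the centromeric end of Dup-C and columns kb to the telomeric end of Dup-L and Dup-C, and the dashed line marks the centromeric end of Dup-L. The highest block lies in the upper right in Dup-C (34.1) and just under the dashed line at the right in Dup-LdeltaBor (22.9) and Dup-L (11.8).

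Strips of 100 kb on either side of the edges of the square show what its limits leave out. Inside the centromeric edge the fold over WT in Dup-C was 12.4 and outside it 1.23. Inside and outside the telomeric edge it was 9.85 and 1.42 in Dup-LdeltaBor, 11.4 and 1.21 in Dup-C, and 5.23 and 1.01 in Dup-L. Toward the boundary the square has no such limit. At the edge on the centromeric side, folds inside and outside were 11.8 and 10.7 in Dup-LdeltaBor, 5.61 and 5.18 in Dup-C, and 6.03 and 5.58 in Dup-L. On the telomeric side they were 6.94 and 7.74 in Dup-LdeltaBor, 7.24 and 7.94 in Dup-C, and 3.8 and 4.00 in Dup-L.

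KR balancing, which gives every bin of a map the same sum of contacts, lowered the corner folds. The bin sums differ among the deposited KR maps, from 12609 in Dup-C to 28324.5 in Dup-LdeltaBor, and were first brought to the value of WT, a step added after seeing the data. Corner means were then 3.05 times WT in Dup-LdeltaBor, 3.61 times in Dup-C, 2.36 times in Dup-L, 0.939 times in Dup-S and 1.24 times in deltaBor. Outer and inner parts were at 1.31 and 4.43 in Dup-LdeltaBor, 4.98 and 2.53 in Dup-C, and 1.05 and 3.39 in Dup-L, so the part that adjoins the centromeric end remained the higher. The step at the end of the duplication was 3.72 in Dup-LdeltaBor, 7.25 in Dup-C and 4.00 in Dup-L.

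All 1600 pairs (100%) were above 0 in the authors' deposited map of Dup-C minus WT, where 58.9% of the 35708 pairs of the map at the same distances were above 0. In the authors' deposited map of Dup-L minus WT, 100% of the inner part and 79.5% of the outer part were above 0, against 69.8% at the same distances. The authors' deposited map of Dup-LdeltaBor minus Dup-L had 100% of the inner part and 87.1% of the outer part above 0, against 61.5%. In the authors' deposited map of deltaBor minus WT the share over the square was 73.7%, against 47.9%. In the authors' deposited map of Dup-S minus WT it was 48.9%, against 55.0%. The square is included in these map shares.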

How the data were processed

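The submitters' processing notes name Bowtie2 2.2.6 and the mm9 build, and file names mark a mapping quality of 30 and 10 kb bins. The read filters, any removal of duplicates and the balancing tool were not stated there. Raw contact counts per pair of bins, with empty pairs left out, were deposited for each library beside a KR-balanced signal map. The authors deposited 7 comparison maps: 5 of differences, read as a score of unstated scale, and 2 of log2 ratios, not printed here. The Dup-C and Dup-S files give offsets, converted to the common grid of 587 bins.

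Folds are ratios of raw counts scaled on contacts 2 or more bins apart, with both bins on one side outside the Dup-C segment. Each duplicated segment is the stretch whose bin sums relative to WT differed most from the rest (Poisson likelihood with 2 ends), and the boundary bin precedes the bin empty in deltaBor. Intervals of steps, gains and levels are normal approximations from the counts; others are exact. Block folds needed at least 20 counts in the reference. Calculations used Python 3.11.15, numpy 2.4.6, scipy 1.17.1 and pandas 2.3.3, and were tested on simulated data. Named blocks were the 3 highest and 3 lowest of the 64 in each comparison, and named bins those on either side of a duplication end; others are marked as chosen later. Alternatives were KR values, other scalings, reference levels, window and block sizes and thresholds. Members and lists were chosen with earlier results of these data known. No genome of the files' build was used here, so no sequence is printed.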

Additional observations from a re-analysis of the deposited data

How the results depend on the processing

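The corner folds of Dup-LdeltaBor, Dup-C, Dup-L and deltaBor over WT and of Dup-LdeltaBor over Dup-L stayed above 1 under all 6 alternatives. The first of these used KR values as deposited, whose bin sums differ by library, and gave 3.97, 2.09, 2.78, 1.09 and 1.43 in that order, with 0.695 for Dup-S over WT. KR values at equal bin sums gave 3.05, 3.61, 2.36, 1.24 and 1.30, with 0.939 for Dup-S. Scaling to all contacts of the map 2 or more bins apart, which hold the added contacts themselves, gave 5.18, 6.18, 3.32, 1.36 and 1.56, with 0.964 for Dup-S. The direction of Dup-S was thus reversed under these 3. Scaling outside its own segment gave 1.04 for Dup-S, and scaling contacts 10 or more bins apart 8.86 for Dup-C. Steps at the centromeric end in Dup-LdeltaBor, Dup-C and Dup-L were 3.72, 7.25 and 4.00 with KR values; with 10 bins on either side they were 10.1 in Dup-C and 5.64 in Dup-L. The ratio of junction gain to the same-side WT level, in the same order, was 1.36, 0.940 and 0.589 with 2 times the WT count subtracted. It was 0.618, 0.157 and 0.390 with KR values as deposited, and 0.446, 0.377 and 0.310 at equal bin sums. Against WT pairs of the whole map it was 1.89, 1.5 and 0.906. Scaled to all contacts 2 or more bins apart it was 0.923, 0.729 and 0.523. Over the extra contacts within the telomeric flank it was 1.05, 1.12 and 0.969. At 1.5-fold in place of 2-fold, 4 blocks passed in Dup-S (0 at 2-fold), 19 in deltaBor (0) and 45 in Dup-LdeltaBor over Dup-L (5). The shares of map blocks at 1.5-fold were 8.17%, 6.8% and 8.65% in that order. In that last comparison 0 of the 16 blocks of 100 kb passed 2-fold, against 1.38% of the map. The other 34 values stayed within the counting interval, or within 1.5 times for counts of blocks, with 100 kb blocks compared as shares of 16. KR values at equal bin sums and division by flank contacts were chosen after seeing the data; causes of the other differences were not tested. No paired analysis was possible because each genotype had 1 library. With 13 contacts per pair in WT at the median, single pairs, and classes and blocks of few pairs, are imprecise.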
